A study of Mus musculus with 12 samples.

Results

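Cholesterol synthesis was followed through 8 named genes: the enzyme genes Hmgcs1, Idi1, Fdft1, Sqle, Lss and Dhcr7, and the regulator genes Insig1 and Srebf2. Every probe set that the platform annotation assigns to exactly 1 of them was taken, and no measured value entered that choice of probe sets. The genes themselves were chosen with earlier results of these data known. This gave 17 of the 20380 probe sets with a single gene, for 7 of the 12393 genes so covered. Insig1 had no probe set of its own in the annotation used, so it is not analysed here. A mean scaled signal of at least 47.0 over all 12 arrays was required for testing, and 14 of the 17 probe sets passed, against 12072 of all single-gene probe sets. All 7 genes kept at least 1 probe set. The 3 others were dim on every array, with scaled signals of 2.89 to 55.0 for Fdft1 1438918_at, 2.20 to 27.2 for Fdft1 1438919_x_at and 3.01 to 40.0 for Lss 1420014_at. None of the 8 genes is a receptor for cholesterol uptake, so uptake enters only through a separate gene list.

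Expression was measured on Affymetrix Mouse 430A arrays in muscle cells of C57BL/6J mice aged 8 to 12 weeks, sorted from the hind limbs, with 3 groups of 4 arrays. Quiescent satellite cells (QSC), the resting stem cells of muscle, bound the monoclonal antibody SM/C-2.6, were taken right after the sort and were over 97% Pax7(+). Activated satellite cells (ASC) were SM/C-2.6(+) cells kept for 4 days in DMEM with 20% fetal calf serum and 2.5 ng/ml bFGF, and were over 99% MyoD(+). Non-myogenic cells (NMC) were SM/C-2.6(-)CD45(-) cells taken right after the sort, with fewer than 1% myogenic cells. The labels name no transgene or mutation in any group. Only the activated cells were cultured, so activation cannot be told apart from culture, serum or the time since sorting. Whether replicate arrays stem from separate animals or cultures is not stated in the labels, so the p-values cover only the spread among these arrays, and that spread may be technical. In bulk samples, fewer cells of a type and less RNA per cell cannot be told apart.

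Deposited signals had trimmed means of 323 to 502 on the 5 arrays made with the small-sample labelling kit and 160.4 to 236 on the 7 made with the two-cycle kit. All signals below were scaled to a common trimmed mean of 235. Quiescent and activated groups each hold 2 arrays of either kit (arrays 1 and 2 small-sample, 3 and 4 two-cycle), and the non-myogenic group holds 1 small-sample array (array 1) and 3 two-cycle arrays. Markers fit the labels for the main cell types: the summed signal of 5 satellite cell markers was 8567 to 12805 in quiescent, 1046 to 1461 in activated and 443 to 685 in non-myogenic cells. In non-myogenic cells Chodl had a mean of 520, while Pax7, Myf5, Cdh15 and Calcr had means of 4.07 to 22.3. In activated cells Chodl and Calcr were at 7.49 and 9.18. Quiescent samples also held signal of marker genes of other cells of muscle, and whether it came from such cells was not tested. Their summed signal of 6 fibroblast markers was 7240 to 11690.4, against 166 to 685 in activated and 29970.2 to 54857 in non-myogenic cells, and that of 7 endothelial markers was 2425 to 4200.3, 47.4 to 107 and 11141 to 12538. Non-myogenic arrays, labelled as holding fewer than 1% myogenic cells, had the summed signal of 5 muscle fibre markers at 6803 to 24279, against 1555 to 5556 in quiescent and 891 to 9445 in activated cells. For the Gapdh control the signal ratio of the 3' to the 5' probe set, which rises with RNA breakdown and with rounds of amplification, was 4.02 ± 0.969 (SD, n = 4) in quiescent, 1.75 ± 0.411 in activated and 3.87 ± 0.916 in non-myogenic cells. For the actin control it was 2.63 ± 1.04, 1.61 ± 0.346 and 1.96 ± 0.374 in the same order.

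Cells build cholesterol from acetyl-CoA through mevalonate, isoprenoid diphosphates, squalene and lanosterol. Transcription of the enzymes is driven by SREBP-2, the product of Srebf2, which is held in the endoplasmic reticulum by INSIG proteins and SCAP while sterols are plentiful and is cut free in the Golgi when sterols run low. Growing cells need sterol for new membrane, and cells in serum can take it up from lipoproteins.

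RefSeq promoter windows of the mouse build GRCm38.p6, the 250 bases before the gene start, were found for 6 of the 8 genes. They were searched on both strands for the sterol regulatory element (TCACNCCAC, and its shorter form TCACNCCA, which lies inside the longer one and was chosen with these sequences in view) and for CCAAT, the box bound by NF-Y, which is known to act with SREBP. Hmgcs1 is shown because its window holds the longer element, Srebf2 because its window holds only the shorter one, and Idi1 because the values below set it apart from Hmgcs1 and its window holds neither. All 3 are on the plus strand, at chr13:119690101-119690350 for Hmgcs1, chr15:82147019-82147268 for Srebf2 and chr13:8885356-8885605 for Idi1. Each is written 5′ to 3′ with the matches in capitals, where ATTGG is CCAAT read from the other strand.
Hmgcs1: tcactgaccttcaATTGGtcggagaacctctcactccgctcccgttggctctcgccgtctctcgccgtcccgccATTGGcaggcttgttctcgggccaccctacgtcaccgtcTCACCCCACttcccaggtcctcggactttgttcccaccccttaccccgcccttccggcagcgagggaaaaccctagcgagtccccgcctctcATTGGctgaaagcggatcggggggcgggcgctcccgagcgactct
Srebf2: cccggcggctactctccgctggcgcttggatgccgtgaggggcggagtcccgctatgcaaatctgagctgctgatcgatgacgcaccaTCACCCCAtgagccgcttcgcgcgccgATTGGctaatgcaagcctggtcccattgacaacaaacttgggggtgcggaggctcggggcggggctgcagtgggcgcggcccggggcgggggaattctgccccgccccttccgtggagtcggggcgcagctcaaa
Idi1: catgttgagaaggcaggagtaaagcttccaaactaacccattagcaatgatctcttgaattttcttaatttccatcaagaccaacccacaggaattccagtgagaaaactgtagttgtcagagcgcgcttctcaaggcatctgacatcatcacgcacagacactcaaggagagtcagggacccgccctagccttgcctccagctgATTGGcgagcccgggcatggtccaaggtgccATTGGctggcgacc
The longer element lay 137 to 129 bases before the start of Hmgcs1, with 3 CCAAT boxes, and the shorter one 162 to 155 bases before that of Srebf2, with 1 box. Idi1 had 2 CCAAT boxes and no match to either element. Of 32851 promoter windows of the same length, 1.05% held TCACNCCAC, 3.67% held TCACNCCA and 33.8% held CCAAT. A match describes letters in the window and not a site in use.

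Across the 3 groups, most of the probe sets had their highest mean in quiescent cells and their lowest in non-myogenic cells. Only Idi1 1423804_a_at and Fdft1 1438322_x_at passed the test in all 3 comparisons, and the calls between activated and quiescent cells depended on the scaling. Of the 14 probe sets, 7 were lower in activated than in quiescent cells and 10 were lower in non-myogenic than in quiescent cells, with 0 higher in either comparison by limma (adjusted p under 0.05, and also 0 higher at an unadjusted p under 0.05). Between the remaining groups, 7 were higher in activated than in non-myogenic cells and 0 lower (0 at an unadjusted p under 0.05). Many genes differ between these groups, and over all 12072 probe sets tested 37.6% were lower and 30.7% higher in activated than in quiescent cells. In non-myogenic against quiescent cells 27.4% were lower and 24.0% higher, and in activated against non-myogenic cells 34.1% were higher and 35.9% lower. The comparisons share groups of arrays, so their counts are not independent. Differences are on the scale of log2(signal + 14.7), which understates the change of dim genes.

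**Figure D1:**
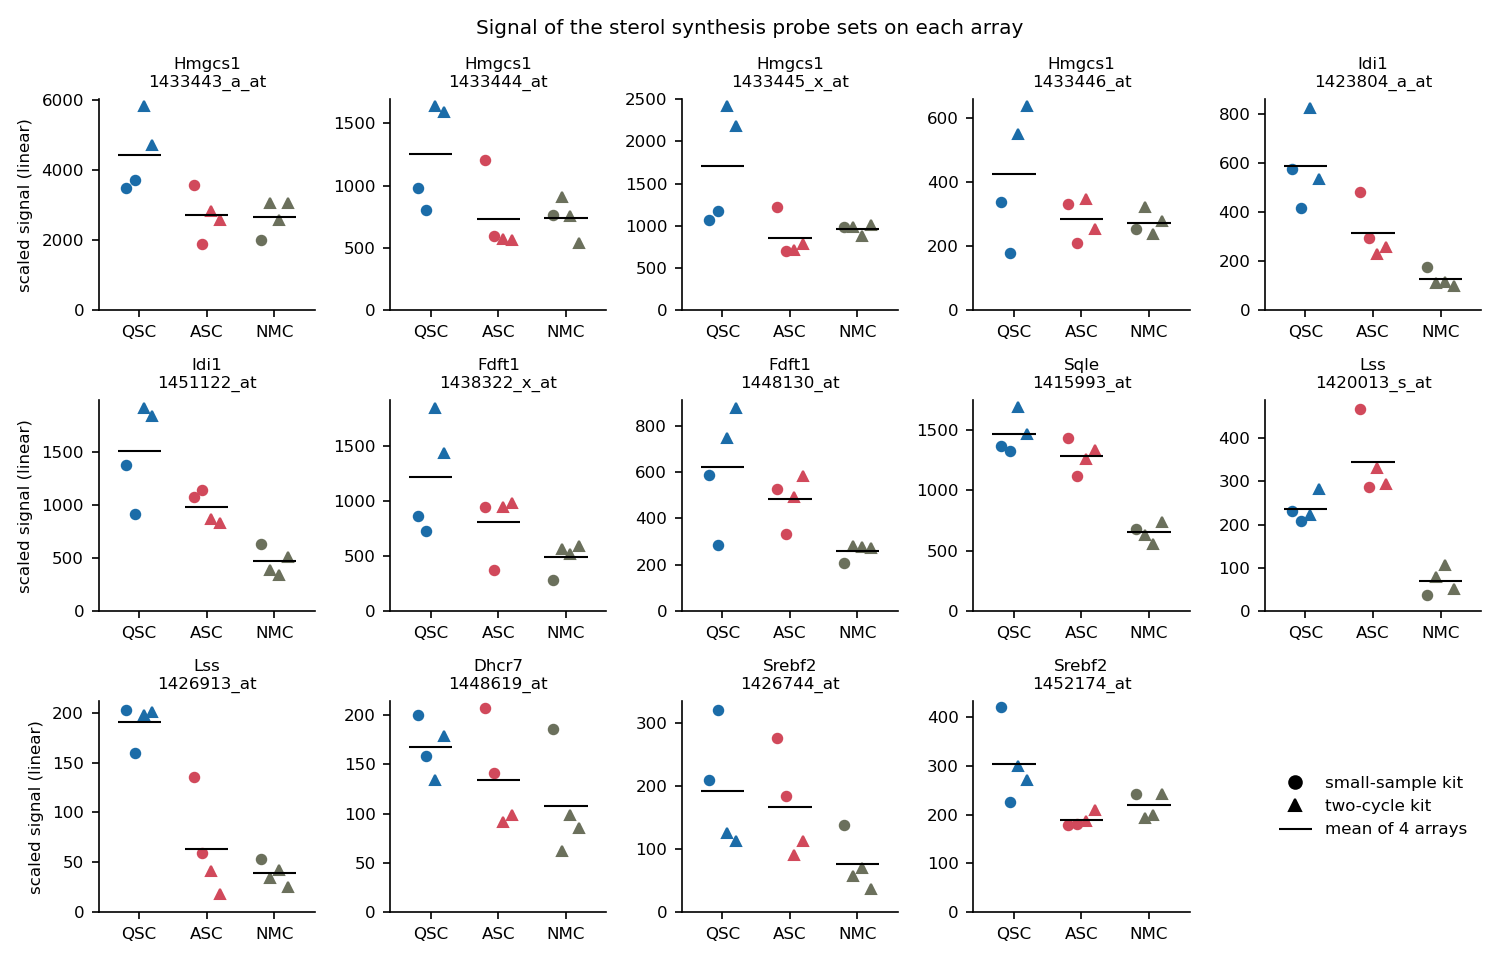
Scaled signal (linear) of each of the 14 tested probe sets on every array, by group: quiescent (QSC), activated (ASC) and non-myogenic (NMC). Circles are small-sample arrays, triangles two-cycle arrays and bars the mean of 4 arrays. Sqle, both Idi1 probe sets, Fdft1 1448130_at and Lss 1420013_s_at sit lowest in the non-myogenic arrays with no overlap, while the 4 Hmgcs1 probe sets have activated and non-myogenic arrays at like levels.

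Hmgcs1 encodes the cytosolic HMG-CoA synthase, which makes the precursor of mevalonate. Its signal by probe set 1433443_a_at was 3502, 3729, 5831 and 4705 on the quiescent arrays 1 to 4, 3573, 1905, 2839 and 2564 on the activated arrays and 1998, 3058, 2587 and 3053 on the non-myogenic arrays. All quiescent arrays lay above all non-myogenic arrays, and a single activated array (ASC 1) reached the quiescent range. The mean fell from 4441 ± 1063 (SD, n = 4) in quiescent to 2720.2 ± 691 in activated cells, a log2 difference of -0.71 ± 0.19 (SE, adjusted p 0.00511), or 1.64-fold. Non-myogenic cells were at 2674 ± 502, lower than quiescent cells by 1.75-fold (log2 -0.81 ± 0.20, adjusted p 0.00397). Activated and non-myogenic cells were not told apart, with a 95% interval of -0.33 to 0.52 for the log2 difference.

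The other 3 Hmgcs1 probe sets repeat parts of this pattern. By 1433445_x_at, whose suffix marks possible cross-hybridisation, the signal was 1076, 1174, 2418 and 2183 on the quiescent arrays 1 to 4, 1220.1, 699, 712 and 782 on the activated arrays and 990.1, 983, 881 and 1010.5 on the non-myogenic arrays. Quiescent arrays 3 and 4 were far above arrays 1 and 2 here, and the log2 difference of activated from quiescent cells was -0.94 ± 0.25 (adjusted p 0.00446). Probe set 1433444_at read 978, 807, 1639.8 and 1593 on the quiescent arrays 1 to 4, 1209, 599, 570.2 and 565 on the activated arrays and 762, 907, 758 and 542 on the non-myogenic arrays, with overlapping groups and a log2 difference of -0.77 ± 0.29 (adjusted p 0.0283). That call was lost without any of ASC 2, 3 or 4 or QSC 3 or 4 (log2 -0.71 to -0.62, adjusted p 0.0694 to 0.0947). Probe set 1433446_at ranged from 179.8 to 638 in quiescent, 212 to 348 in activated and 239.9 to 322 in non-myogenic cells and was not called in any comparison (adjusted p 0.160 for activated against quiescent). Against non-myogenic cells, none of the 4 Hmgcs1 probe sets passed the test in activated cells, with log2 differences of -0.15 to 0.18 and adjusted p of 0.563 to 0.892 (0 of 4 at an unadjusted p under 0.05).

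Idi1 encodes isopentenyl-diphosphate isomerase, which supplies the reactive isoprene unit for chain building. By probe set 1423804_a_at its signal was 578, 417, 827 and 538 on the quiescent arrays 1 to 4, 484, 297, 230.0 and 259.6 on the activated arrays and 176, 112, 116 and 101 on the non-myogenic arrays. The groups stepped down from quiescent to activated to non-myogenic, with overlap only where ASC 1 exceeded QSC 2. Means were 589.8 ± 172 (SD, n = 4), 318 ± 114 and 126 ± 33.8. All 3 comparisons passed: log2 -0.88 ± 0.24 (SE, adjusted p 0.00586) for activated minus quiescent, -2.03 ± 0.25 (adjusted p 1.76e-05) for non-myogenic minus quiescent and 1.15 ± 0.25 (adjusted p 0.000958) for activated minus non-myogenic.

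Its other probe set, 1451122_at, read 1381, 921, 1911 and 1837 on the quiescent arrays 1 to 4, 1081, 1139, 873 and 829 on the activated arrays and 637, 393, 346 and 513 on the non-myogenic arrays. Non-myogenic arrays again lay below all others, and the difference of non-myogenic from quiescent cells was 3.08-fold (log2 -1.62 ± 0.25, adjusted p 0.000135). Activated minus quiescent was -0.57 ± 0.25, just short of the threshold (adjusted p 0.0523, and 0.000990 to 0.947 over the alternatives). It passed in 10 of the 27 alternatives, among them the two-cycle arrays alone (log2 -1.13) and the fit without QSC 2 (-0.83).

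Fdft1 encodes squalene synthase, the step that commits isoprenoids to sterols. Probe set 1438322_x_at read 869, 733, 1841 and 1436 on the quiescent arrays 1 to 4, 945, 376, 948 and 988 on the activated arrays and 285, 569, 518 and 597 on the non-myogenic arrays. The suffix of this probe set marks possible cross-hybridisation. The activated array ASC 2 was far below the other 3. Activated minus quiescent was -0.57 ± 0.23 (SE, adjusted p 0.0366), and without ASC 2 it was -0.36 (adjusted p 0.139). The call was also lost without ASC 3, ASC 4, QSC 1, QSC 3 or QSC 4 (log2 -0.61 to -0.48, adjusted p 0.0507 to 0.104). Probe set 1448130_at read 589, 284, 745 and 877 on the quiescent arrays 1 to 4, 526, 332, 495 and 582 on the activated arrays and 209, 281, 276 and 274 on the non-myogenic arrays, where QSC 2 lay below all activated arrays and the other 3 quiescent arrays above them (log2 -0.28 ± 0.22, adjusted p 0.287). Both probe sets were lower in non-myogenic than in quiescent cells, by 2.75-fold and 2.39-fold (adjusted p 0.000157 and 0.000482), and lower than in activated cells, by 1.85-fold and 1.98-fold.

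Sqle encodes squalene epoxidase, the oxygen-dependent step that opens the sterol branch. Its only probe set, 1415993_at, read 1365, 1327, 1691 and 1468 on the quiescent arrays 1 to 4, 1435, 1120.4, 1256 and 1333 on the activated arrays and 684, 634, 561 and 742 on the non-myogenic arrays. Arrays of a group lay close together, quiescent and activated arrays overlapped, and every non-myogenic array was below all 8 satellite cell arrays. The means were 1463 ± 164 (SD, n = 4) in quiescent, 1286 ± 132 in activated and 655 ± 76.6 in non-myogenic cells. Non-myogenic minus quiescent was -1.16 ± 0.15 (SE, adjusted p 2.24e-05), a 2.23-fold difference, and activated minus non-myogenic was 0.98 ± 0.15 (adjusted p 4.37e-05). Activated minus quiescent was -0.18 ± 0.14 with a 95% interval of -0.49 to 0.13 (adjusted p 0.269).

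Lss encodes lanosterol synthase, which folds oxidosqualene into the first sterol. Its tested probe sets moved apart on activation. By 1420013_s_at, whose suffix marks probes shared between transcripts, the signal was 231, 209.7, 223 and 282 on the quiescent arrays 1 to 4, 467, 287, 331 and 295 on the activated arrays and 37.3, 79.8, 107 and 52.1 on the non-myogenic arrays, so every activated array was above every quiescent array and every non-myogenic array was below both. By 1426913_at the signal was 202, 159.8, 198 and 201 on the quiescent arrays 1 to 4, 135, 59.2, 41.7 and 18.1 on the activated arrays and 53.8, 34.2, 42.5 and 25.7 on the non-myogenic arrays, and here every activated array was below every quiescent array. Activated minus quiescent was 0.50 ± 0.24 (SE, adjusted p 0.0759) by the former and -1.60 ± 0.30 (adjusted p 0.000321) by the latter, so no direction is given for the gene. Both were lower in non-myogenic than in quiescent cells, by 3.26-fold and 3.52-fold (adjusted p 6.28e-05 and 0.000258). The non-myogenic mean of 1426913_at, 39.0, lay under the minimum of 47.0. It thus entered the test only through the groups where it is higher, and its call there supports nothing. Activated minus non-myogenic was 2.20 ± 0.24 (adjusted p 2.21e-06) by 1420013_s_at and 0.21 ± 0.30 (adjusted p 0.549) by 1426913_at.

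Dhcr7 encodes 7-dehydrocholesterol reductase, which makes cholesterol in the last step of its branch. Probe set 1448619_at read 199.7, 158, 134 and 178 on the quiescent arrays 1 to 4, 207, 141, 91.5 and 98.6 on the activated arrays and 186, 62.0, 98.2 and 85.1 on the non-myogenic arrays. The 3 groups overlapped, with the small-sample array ASC 1 the highest of all 12 and NMC 1 the highest of its group. No comparison passed, with log2 differences of -0.34 ± 0.20 (SE, adjusted p 0.155) for activated minus quiescent and -0.50 ± 0.21 (adjusted p 0.0629) for non-myogenic minus quiescent. The non-myogenic difference passed with quantile normalization, with array weights, without QSC 2, ASC 1 or NMC 1 (adjusted p 0.0151 to 0.0488), and on the two-cycle arrays alone (log2 -0.83, adjusted p 0.00787).

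Srebf2 encodes the transcription factor precursor SREBP-2, whose activity depends on cutting of the protein and is not read by these arrays. By probe set 1452174_at its signal was 420.3, 226, 299 and 271 on the quiescent arrays 1 to 4, 179, 181, 188 and 209 on the activated arrays and 242, 194, 199.6 and 243 on the non-myogenic arrays. All activated arrays were below all quiescent arrays, while non-myogenic arrays overlapped both. The mean fell from 304 ± 83.1 (SD, n = 4) to 189 ± 14 on activation (log2 -0.61 ± 0.18, adjusted p 0.00710). Probe set 1426744_at gave another order, with 209, 320.0, 126 and 112 on the quiescent arrays 1 to 4, 275, 185, 90.4 and 113 on the activated arrays and 138, 57.8, 70.9 and 37.4 on the non-myogenic arrays. Its small-sample arrays were the highest in each group, it was not called between activated and quiescent cells (log2 -0.20 ± 0.19, adjusted p 0.374), and it was lower in non-myogenic than in quiescent (-0.92 ± 0.20, adjusted p 0.00154) and activated cells. By 1452174_at, non-myogenic minus quiescent was -0.41 ± 0.18 (adjusted p 0.0746).

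**Figure D2:**
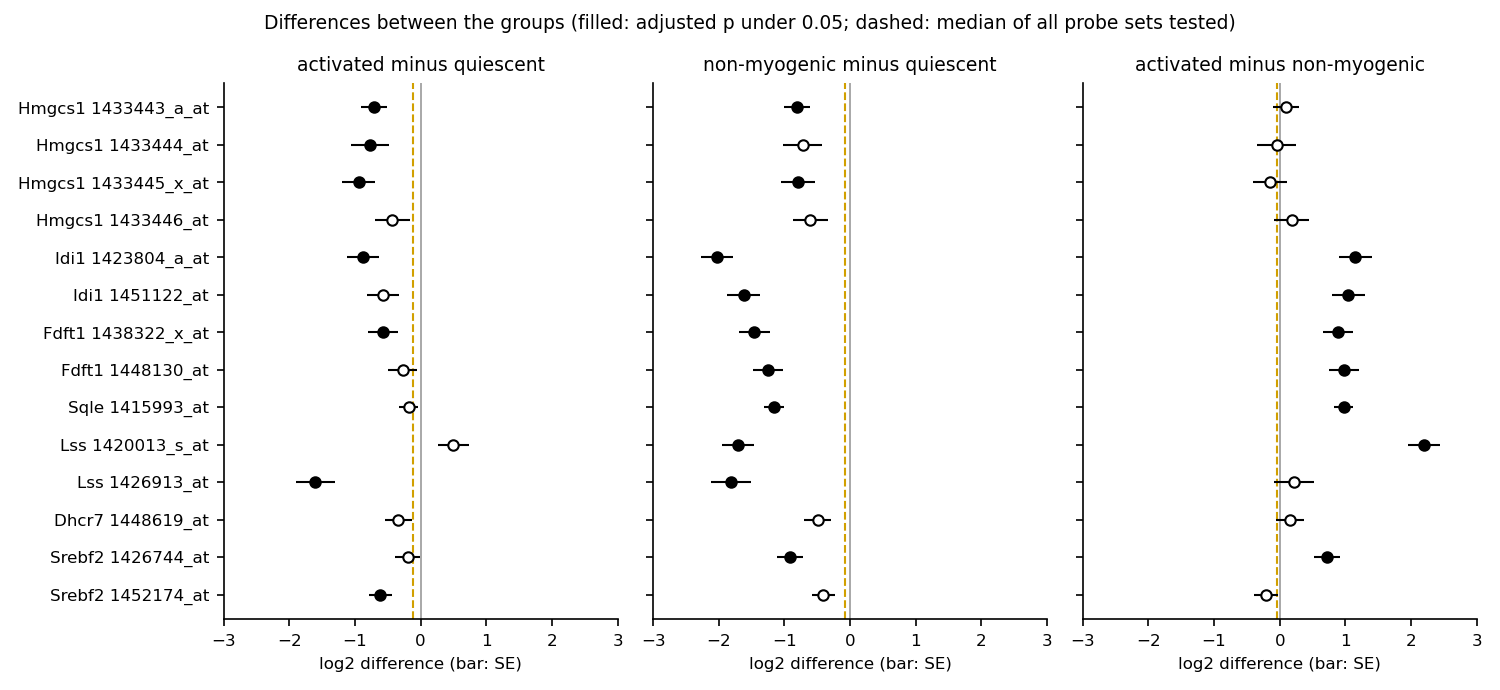
Log2 difference of each probe set in the 3 comparisons, with bars for the standard error. Filled points have an adjusted p under 0.05, and the dashed line is the median of all 12072 probe sets. In non-myogenic minus quiescent cells all 14 points lie left of 0 and 10 are filled, and in activated minus non-myogenic cells the 4 Hmgcs1 points lie near 0 while Sqle, Idi1, Fdft1 and Lss 1420013_s_at lie to the right.

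Set side by side, the median log2 difference of the 14 probe sets was -0.57 in activated minus quiescent cells, against -0.12 for all 12072 probe sets. It was -1.04 against -0.08 in non-myogenic minus quiescent cells and 0.47 against -0.04 in activated minus non-myogenic cells. Signals in activated and quiescent cells were fully apart for 3 of 14 probe sets, where 51.3% of all probe sets did not overlap. In non-myogenic against quiescent cells 9 of 14 did not overlap (38.0% of all), and in activated against non-myogenic cells 5 of 14 (58.4% of all). Probe sets of 1 gene are not independent, and 4 of the 14 are of Hmgcs1. The genes were chosen with earlier results of these data known, so these medians and shares are descriptions only. The share of probe sets called lower in activated cells, 7 of 14, stands beside a background of 37.6%, and the share called lower in non-myogenic cells, 10 of 14, beside 27.4%. Fibroblast and endothelial marker sums also differ between all 3 groups as given above. Muscle fibre sums were higher in non-myogenic than in quiescent cells, while those of activated cells overlapped both. The Gapdh ratio was lower in activated cells than in the other groups, which were alike. The part of the marker sums and of this ratio in these differences was not tested.

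The calls between activated and quiescent cells depended on the scaling. With the deposited values unscaled or with array medians set equal, only 2 of the 14 probe sets were called in either setting, and they lay on opposite sides, with Lss 1420013_s_at higher (log2 0.80 and 1.03) and Lss 1426913_at lower. These settings move the median of all probe sets from -0.12 to 0.17 and 0.38 on the log2 scale, and the split of all probe sets from 30.7% higher and 37.6% lower to 37.7% and 26.2% (unscaled) and 48.1% and 22.8% (equal medians). Relative to the median of all probe sets, the median of the 14 was -0.46 in the setting reported, -0.44 unscaled, -0.41 with equal medians and -0.62 after quantile normalization. The last called 8 of them lower, beside 31.3% of all probe sets. Between non-myogenic and quiescent cells the unscaled, equal-median and quantile settings called 8, 11 and 12 of the 14, all lower, beside 10.9%, 26.6% and 29.1% of all probe sets called lower. Unscaled values also put 35.3% of all probe sets higher there, with their median at 0.29. In activated against non-myogenic cells they called 7, 10 and 7, all higher, beside 29.4%, 50.5% and 38.3% of all probe sets, and equal medians moved the split of all probe sets to 50.5% higher and 23.8% lower.

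For activated against quiescent cells the counts differed between the labelling kits. On the 7 two-cycle arrays alone 11 of the 14 probe sets were lower (37.0% of all probe sets), with a median log2 difference of -0.85. On the 5 small-sample arrays alone limma called 0 (1 higher and 1 lower at an unadjusted p under 0.05, and 26.3% of all probe sets called lower), with a median of -0.14. The log2 difference of Hmgcs1 1433445_x_at was -0.28 within the small-sample arrays and -1.60 within the two-cycle arrays. The interaction of kit and group was 1.33 for it (adjusted p 0.0474) and passed for this 1 of the 14, where 4.66% of all probe sets passed. Within non-myogenic against quiescent cells the small-sample and two-cycle arrays gave 2 and 13 of 14 lower, beside 6.88% and 28.0% of all probe sets. Within activated against non-myogenic cells they gave 2 and 7 of 14 higher, beside 20.6% and 33.0%. The small-sample fits rest on 1 non-myogenic array.

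In the activated group the kit split coincides with the signal of differentiation genes. Myog, which encodes the transcription factor myogenin of differentiating myoblasts, read 4532, 1775, 444 and 369 on activated arrays 1 to 4, and Acta1, the skeletal actin gene, read 4702, 3669.7, 289 and 331. Both were thus higher on the small-sample arrays 1 and 2 than on the two-cycle arrays 3 and 4. In the quiescent group, all tested Hmgcs1 and Fdft1 probe sets, Sqle and Idi1 1451122_at were higher on arrays 3 and 4 than on arrays 1 and 2. Kit and the level of these genes cannot be told apart in the activated arrays, and their part in the split was not tested.

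**Figure D3:**
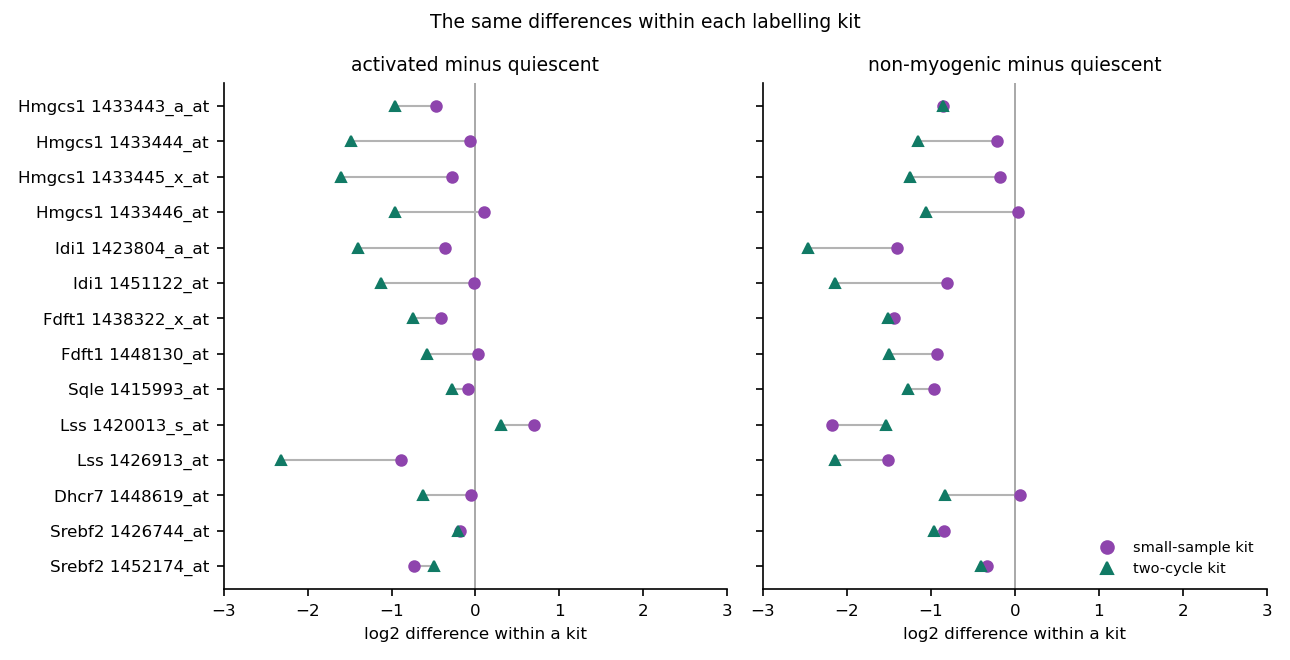
Log2 difference of each probe set within the small-sample arrays (circles) and within the two-cycle arrays (triangles), for activated minus quiescent and non-myogenic minus quiescent cells. In the left panel 11 of 14 small-sample points are below 0 but none passed the test, and the two-cycle points of Hmgcs1, Idi1 and Lss 1426913_at lie near or beyond -1.

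Among themselves the genes did not share a single profile. With 1 probe set a gene and each profile centred on its own mean, Idi1 and Sqle were closest over the 12 arrays, with a root mean square difference of 0.345 on the log2 scale. Hmgcs1 and Fdft1 were at 0.396 and Hmgcs1 and Srebf2 at 0.406. Lss 1420013_s_at stood farthest from Srebf2, at 1.05. Arrays share labelling kit and scaling, so these distances are descriptions only. The genes nearest to the members called on activation were Hnrnph1 (0.220) and Txnrd3 (0.227) for Hmgcs1, Eif4b (0.297) and Bcap29 (0.303) for Fdft1, and Lrrc61 (0.179) and Mettl23 (0.193) for Srebf2.

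The other enzymes of the pathway were followed with 1 probe set a gene, where over all 7961 genes 37.9% were lower and 31.6% higher in activated than in quiescent cells. On this basis 2 of the 6 enzyme genes above (Hmgcs1 and Fdft1) were lower and 0 higher, and Srebf2 was lower. The other tested probe sets of Fdft1 (log2 -0.28) and Srebf2 (-0.20) were not called by limma (adjusted p 0.287 and 0.374). Of 5 other tested enzymes from acetyl-CoA to farnesyl and geranylgeranyl diphosphate, 1 was lower on activation: Ggps1 (1419506_at), which makes geranylgeranyl diphosphate for protein prenylation, fell from 242 ± 144 (SD, n = 4) to 106 ± 73.0 (log2 -1.15 ± 0.17, adjusted p 4.42e-05; 0.0538 with no term for the kit). Of 8 tested enzymes from lanosterol to cholesterol, 1 was lower: Hsd17b7 (1448865_at), a sterol 3-keto reductase, fell from 194 ± 77.9 to 91.2 ± 62.8 (log2 -1.11 ± 0.18, adjusted p 8.14e-05). Cyp51, the lanosterol demethylase gene, was at -0.08 ± 0.15 by its brighter probe set (adjusted p 0.642) but at -0.68 by its other one (adjusted p 0.00307), so its probe sets disagree. The other Hsd17b7 probe set was at -0.73 (adjusted p 0.0841), and of 3 other Ggps1 probe sets 1 was called lower (-1.07) and the others were at -0.38 and -0.03. None of these 13 genes was higher by limma, also at an unadjusted p under 0.05, but that depended on the scaling. With equal medians 2 of 5 early and 4 of 8 late enzymes were higher and 1 of each lower. Of all probe sets 48.1% were higher and 22.8% lower there. Without scaling 1 of each was higher and 1 lower, beside 37.7% and 26.2% of all probe sets. Leaving out QSC 1 also gave 1 higher in each list, and the two-cycle arrays alone gave 1 late enzyme higher. The early count was 0 lower with no term for the kit, 2 with array weights, on the two-cycle arrays alone or without QSC 2, and 3 without ASC 1. The median log2 difference was -0.34 for the former list and -0.08 for the latter, against -0.11 for all genes.

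The same lists were then read in non-myogenic cells. Over all genes 25.9% were lower and 26.3% higher than in quiescent cells, while 5 of the 6 enzyme genes above, 3 of the 5 early enzymes and 5 of the 8 late enzymes were lower and none higher (1 late enzyme higher at an unadjusted p under 0.05). Without scaling 0 early enzymes were lower, and 2 late enzymes were lower and 1 higher, beside 10.9% lower and 35.3% higher of all probe sets. The small-sample arrays alone gave 0 early and 1 late enzyme lower, and 1 late enzyme was higher on the two-cycle arrays alone or without QSC 1. The early count was 1 with no term for the kit or without QSC 3 or NMC 1, and 2 without QSC 1 or QSC 4. Cyp51, by the brighter probe set, was at 148 ± 19.5 (SD, n = 4) in non-myogenic and 399 ± 66.5 in quiescent cells (log2 -1.36 ± 0.16, adjusted p 1.06e-05). Medians were -1.31, -0.62 and -0.76 for the 3 lists, against -0.03 for all genes. In activated against non-myogenic cells, where 33.8% of all genes were higher and 38.1% lower, 4 of 6, 2 of 5 and 4 of 8 were higher. Only Ggps1 went against its list there, lower in activated cells (log2 -0.58 ± 0.17, adjusted p 0.00928).

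Of 4 tested genes of SREBP-1 and of SREBP processing, 3 were lower and 0 higher in activated than in quiescent cells, in each kit alone too. Over all genes 37.9% were lower and 31.6% higher. Insig2, which encodes another of the INSIG proteins that hold SREBP back, fell from 1583 ± 235 (SD, n = 4) to 290.2 ± 40.4 (log2 -2.39 ± 0.16, adjusted p 3.47e-08), and was 539 ± 104 in non-myogenic cells. Srebf1, the gene of SREBP-1, fell from 828 ± 229 to 356 ± 40.6 (log2 -1.14 ± 0.19, adjusted p 0.000104), and Mbtps1, which encodes the site-1 protease that cuts SREBP, fell from 1175 ± 94.8 to 585 ± 31.4 (log2 -0.99 ± 0.12, adjusted p 1.08e-05). The gene of the escort protein SCAP did not pass (0.40 ± 0.20, adjusted p 0.0975), though it was called higher without scaling and with equal medians. In those settings 37.7% and 48.1% of all probe sets were higher. Scap was higher in activated than in non-myogenic cells (log2 0.94 ± 0.21, adjusted p 0.00109), where the other 3 were lower. Over all genes 33.8% were higher and 38.1% lower there, and 25.9% were lower in non-myogenic than in quiescent cells. Against quiescent cells 3 of 4 were lower in non-myogenic cells. Without scaling 1 was higher and 1 lower, beside 35.3% and 10.9% of all probe sets. Without NMC 2 or with the replicate block 1 was lower, beside 24.6% and 21.4% of all probe sets. On the small-sample arrays alone, with 1 non-myogenic array, the median log2 difference was -0.35.

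For genes of cholesterol uptake and traffic the median log2 difference on activation was -0.98. Of 9 tested uptake and traffic genes 6 were lower in activated than in quiescent cells and 0 higher, beside 37.9% and 31.6% of all genes. With equal medians 5 were lower and 1 higher, beside 22.8% and 48.1% of all probe sets. Vldlr (probe set 1434465_x_at), a lipoprotein receptor gene, fell from 1061 ± 253 (SD, n = 4) to 107 ± 66.8 (log2 -3.26 ± 0.29, adjusted p 4.03e-07). Mylip, whose product tags lipoprotein receptors for breakdown, fell from 828 ± 186 to 111 ± 47.7 (-2.80 ± 0.15, adjusted p 3.98e-09), and Stard4, which encodes a sterol carrier, fell from 915 ± 219 to 250.1 ± 98.1 (-1.85 ± 0.20, adjusted p 3.11e-06). In non-myogenic against quiescent cells 4 of the 9 were higher, and Stard4 was the 1 lower (log2 -1.41 ± 0.21, adjusted p 9.29e-05). Over all genes 26.3% were higher and 25.9% lower there.

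Genes of sterol efflux and oxysterol response were near the floor of the signal in activated cells. The 5 tested had activated means of 12.8 to 17.5, under the minimum of 47.0, so they entered the test only through the groups where they are high and their count, 5 of 5 lower than in quiescent cells, supports nothing. Their log2 differences depend on the pseudocount. The efflux transporter gene Abca1 fell from 480.2 ± 18.1 (SD, n = 4) to 13.0 ± 10.5 (log2 -4.24 ± 0.21, adjusted p 1.80e-09), a difference of -5.15 to -2.92 over the settings that keep all arrays or 1 kit. Cyp27a1, the sterol 27-hydroxylase gene, fell from 161 ± 16.7 to 14.3 ± 9.35 (-2.67 ± 0.22, adjusted p 1.58e-07, and -3.42 to -1.60 over those settings). The activated means of both lay below the pseudocount of 14.7. Abcg1, another efflux transporter gene, fell from 99.8 ± 23.8 to 16.9 ± 9.80 (-1.89 ± 0.21, adjusted p 3.88e-06). In non-myogenic cells 3 of the 5 were higher than in quiescent cells and 0 lower (4 and 0 at an unadjusted p under 0.05; 1 higher with the smaller pseudocount and 0 on the small-sample arrays alone), and Abca1 reached 837 ± 68.8. Over all genes 26.3% were higher in non-myogenic than in quiescent cells. Fibroblast and endothelial marker sums move with the efflux and oxysterol genes, lowest in activated and highest in non-myogenic cells, and their part was not tested.

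Fatty acid synthesis genes, known as targets of SREBP-1, split between directions, as all genes did. Of 9 tested, 3 were higher and 3 lower in activated than in quiescent cells, beside 31.6% and 37.9% of all genes. Me1, whose malic enzyme supplies NADPH, rose from 71.9 ± 27.1 (SD, n = 4) to 443 ± 31.1 (log2 2.47 ± 0.18, adjusted p 7.17e-08). The probe sets of Scd1, a fatty acid desaturase gene, disagree: the brighter one fell from 2677 ± 694 to 564 ± 212 (-2.24 ± 0.26, adjusted p 4.23e-06), while the other was at 0.11 (adjusted p 0.625). Acss2, an acetyl-CoA synthetase gene, fell from 233 ± 41.9 to 56.3 ± 29.4 (-1.88 ± 0.17, adjusted p 4.72e-07). Fads1 and Fads2, which encode the desaturases of polyunsaturated fatty acids, rose along with Me1 (log2 0.65 ± 0.13 and 1.29 ± 0.20).

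**Figure D4:**
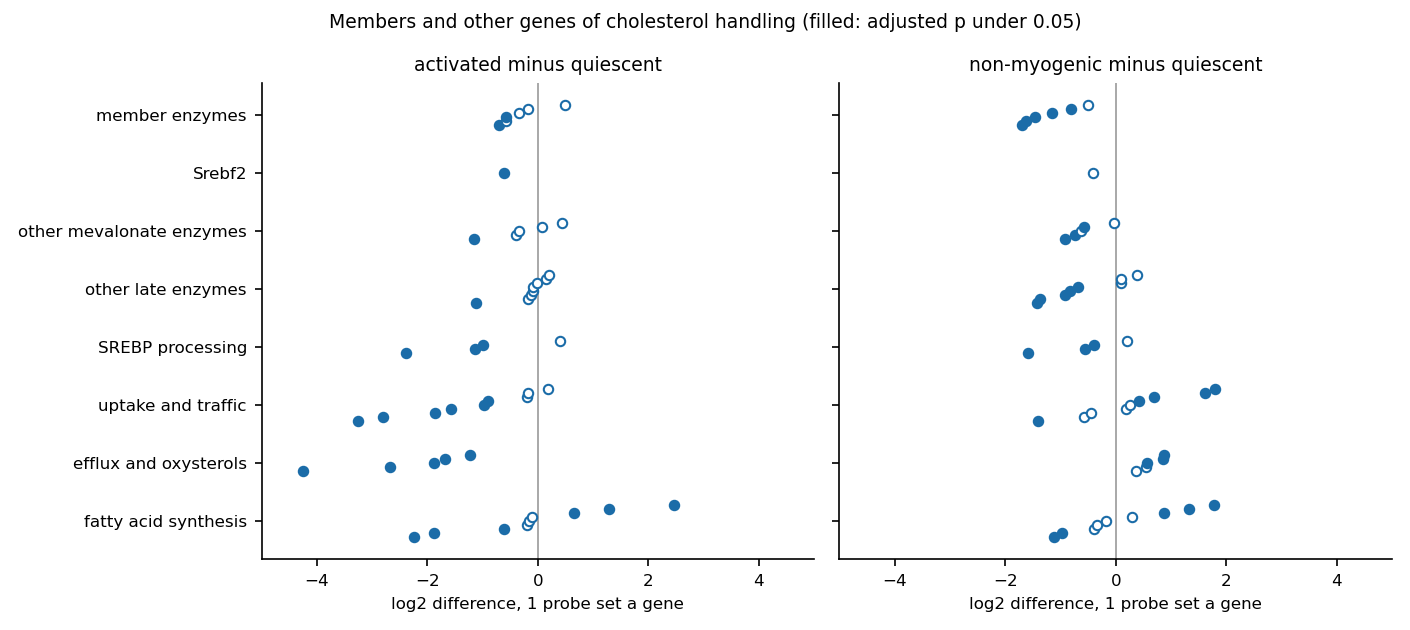
Log2 difference of each tested gene, 1 probe set a gene, in activated minus quiescent (left) and non-myogenic minus quiescent cells (right), by list. Filled points have an adjusted p under 0.05. On the left the efflux genes reach -4.24 and Hsd17b7, at -1.11, is the only late enzyme called, and on the right the member enzymes lie below 0 while the efflux genes lie above it.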

How the data were processed

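RNA of sorted or cultured cells was amplified with either of 2 kits, and each sample was read on its own Affymetrix Mouse 430A array. The authors deposited 1 linear intensity per probe set and array, made with MAS5 per the submitters' processing notes (version and settings: not given in the sources used here). Detection calls did not enter, and no probe set was held to a background limit. The number of arrays limits the precision.

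Names came from the annotation table of the platform, and symbols were updated by Entrez ID for 20351 of the 20380 single-gene probe sets. The 691 probe sets of several genes, 1555 without a listed gene and 64 controls were left out. Each array was scaled to a common mean, trimmed by 2% at each tail, of 235, and log2(signal + 14.7) was taken, the pseudocount being 1/16 of that mean. The 12072 probe sets with a mean scaled signal of at least 47.0 (a share of 0.2 of that mean) entered 1 limma model (version 3.58.1, R 4.3.3, moderated by eBayes) over all 12 arrays, with terms for group and labelling kit and 8 residual degrees of freedom. Calls are at a Benjamini-Hochberg adjusted p under 0.05 over all 12072. The steps were tested on simulated data. Figures were drawn with Python 3.11.15 and matplotlib 3.10.9.

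The members, the gene lists and the markers were chosen with earlier results of these data known. Every member probe set is described. From each other list the genes named are up to 3 with the smallest adjusted p in activated against quiescent cells and any called gene against most of its list, and for each member called in that comparison the 2 genes with the nearest profile. Cyp51, Fads1, Fads2, Myog and Acta1 were named after their values were seen. For lists and profiles 1 probe set a gene was used, that with the highest mean log2 signal. Alternatives were no kit term, each kit alone, no scaling, median centring, quantile normalization, other pseudocounts and filters, 1 probe set a gene, array weights, trend with robust variances, 2 groups at a time, a replicate block and each array left out. The interaction of kit and group was added after seeing the data. Promoter windows and gene starts are RefSeq's, and no coordinates of probe sets are given.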

Additional observations from a re-analysis of the deposited data

Results flagged for a closer look

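Within groups of 4 arrays, 4 of the 51 groups of the 17 probe sets held an array far from the other 3, and chance flags about 1 in 20 such groups. For Hmgcs1 1433444_at, ASC 1 was at 10.26 on the scale of log2(signal + 14.7), with the other activated arrays at 9.18 to 9.26. For Fdft1 1438322_x_at, ASC 2 was at 8.61, with the others at 9.91 to 9.97. NMC 1, the only small-sample array of its group, was at 7.81 for Fdft1 1448130_at, with the others at 8.18 to 8.21. For Lss 1426913_at, QSC 2 was at 7.45, with the others at 7.73 to 7.76.

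The difference of activated from quiescent cells differed between the labelling kits for Hmgcs1 1433445_x_at, by 1.325 on the log2 scale (limma interaction, small-sample minus two-cycle, adjusted p 0.0474). Myog and Acta1 signals of the activated arrays move with the kit as given above, and their part was not tested.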

How the results depend on the processing

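No member probe set reversed a called direction under any of the 27 alternatives, but the number called moved. In activated against quiescent cells, 7 of 14 as reported, it was 0 on the small-sample arrays alone, 11 on the two-cycle arrays alone, 2 without scaling and 2 with median centring. Shares of all probe sets in these settings are given above. With 1 probe set a gene and p-values adjusted over those genes it was 4 of 7, all lower, beside 38.2% of all genes lower. In non-myogenic against quiescent cells, 10 of 14 as reported, the number called was 5 of 7 with 1 probe set a gene, beside 26.4% of all genes lower. On the small-sample arrays alone, with 1 non-myogenic array, the median log2 difference of the 14 was -0.85. In activated against non-myogenic cells, 7 of 14 as reported, the number called was 4 of 7 with 1 probe set a gene, beside 34.1% of all genes higher. On the small-sample arrays alone the median log2 difference of the 14 was 0.64. The small-sample fits hold 5 arrays and 1 probe set a gene tests fewer probe sets, and for the scaling settings the cause was not tested.

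Leaving out each array in turn gave 5 to 10, 9 to 14 and 7 to 7 called in these comparisons. All kept the reported directions except Lss 1420013_s_at, called higher in activated than in quiescent cells without NMC 3. Of all probe sets 35.1% to 37.5% were lower, 23.9% to 27.7% lower and 31.9% to 34.8% higher. With a replicate block beside the kit term 7, 12 and 7 were called, beside 35.8% lower, 21.4% lower and 31% higher of all probe sets. Replicate numbers follow the kit for most arrays. Deviations from the group means of same-numbered arrays correlated at -0.387 to 0.401 (median 0.266, against -0.182 for arrays of other numbers). With the kit removed as well, these medians were -0.183 and 0.0726, so the numbers were not taken as pairs.

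Among other genes, median centring turned values not called above and called there: in activated minus quiescent cells Cyp51 (brighter probe set) to 0.45, Fasn to 0.45 and Nsdhl to 0.52, and in activated minus non-myogenic cells Npc2 to 0.54. It also turned Stard3, called lower in activated than in non-myogenic cells, to 0.065 without a call. With median centring 48.1% and 50.5% of all probe sets were called higher in these comparisons.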

Other observations

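With 1 probe set a gene, Sqle had its nearest profiles over the 12 arrays in Utp25, with a root mean square difference of 0.135 on the log2 scale, Fasn (0.145), Cyp51 (0.167), Smc6 (0.168) and Elovl6 (0.191). Cyp51 acts in sterol synthesis, and Fasn and Elovl6 encode enzymes of fatty acid synthesis and elongation. This list was looked at after the values were seen, and Sqle was not called between activated and quiescent cells. In non-myogenic minus quiescent cells Fasn was at -1.12 ± 0.13 (log2, SE, adjusted p 9.45e-06 by limma) and Elovl6 at -0.97 ± 0.17 (adjusted p 0.000314), beside -1.16 ± 0.15 for Sqle. These comparisons share the same arrays, so the likeness is a description.

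Promoter windows of the remaining members hold other matches. That of Lss holds 1 CCAAT box and neither form of the sterol regulatory element, and that of Insig1 holds 1 CCAAT box and 1 CACGTG, which 6.02% of the 32851 windows hold. Dhcr7 has 3 windows, of which 1 holds CACGTG, another holds 2 CCAAT boxes and neither form of the sterol regulatory element lies in any.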
